A study of Mus musculus with 3 samples.

Results

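Gene expression after PTX was compared with gene expression after LPS in mouse bone marrow-derived dendritic cells, with 1 Affymetrix array for each stimulus. The genes described are those of all noncontrol probe sets with exactly 1 gene symbol in the platform annotation, 34945 of the 45101 probe sets on the array. These probe sets stood for 18193 genes, of which 12299 reached the measured level, an intensity of 78.9 on at least 1 of the 3 arrays of the series. That level is the median of all noncontrol values. Marrow came from female mice aged 6 weeks and was grown with GM-CSF at 20 ng/mL, and nonadherent cells were taken on day 7. Such cells were then held for 24 h with PBS (the unstimulated control), with LPS at 1 µg/mL or with PTX at 100 ng/mL. No genetic change is listed for any group. The strain is given as C57BL/6 for the PBS and LPS samples and as C57BL/7 for the PTX sample, and the labels do not spell out PTX, so the abbreviation is kept. Nothing in the labels tells whether the cultures shared a mouse or a marrow preparation, so treatment, culture and array cannot be told apart.

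Dendritic cells take up antigen, sense microbes through pattern receptors and carry peptides to T cells. LPS, a glycolipid of the outer membrane of Gram-negative bacteria, binds Toll-like receptor 4 with Cd14 and Ly96. Signals through the adaptor Myd88 activate NF-kB and MAP kinases, which drive cytokine and chemokine genes. Signals through the adaptor Ticam1 lead to interferon-beta, and the interferon receptor then switches on antiviral genes.

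All values are deposited intensities on a linear scale, and a difference is the PTX value minus the LPS value of log2(intensity + 16), so a positive difference means higher in PTX. With 1 array for each stimulus there was no replicate check and no test, so only the sizes of differences are given. The LPS array was dimmer at its median over noncontrol probe sets, 65.3 against 86.9 on the PTX array and 85.7 on the PBS array. Its highest reading was larger, however, at 25483 against 16401 on the PTX array. Of its noncontrol probe sets 44.7% were at the measured level, against 52.8% on the PTX array. Among 18 bacterial hybridization controls, added in the same amount to every sample, 16 were lower on the PTX than on the LPS array, with a median difference of -0.19. The controls were not shifted alike. The bright CreX-3 control (14614 in LPS and 10181 in PTX) differed by -0.52. Among dimmer ones BioB-M (495 and 492) differed by -0.01 and r2-Ec-bioB-3 (680 and 499) by -0.43. The probe set at the 5′ end of 18S ribosomal RNA read 1514 in LPS and 9946 in PTX, while that at the 3′ end read 2958 and 1970. For beta-actin the 5′ probe set read 9018 and 9882, and the 3′ probe set 12493 and 13878. The Gapdh control probe sets were lower in PTX, with differences of -1.07 at the 5′ end, -1.19 in the middle and -0.86 at the 3′ end. All 24 poly-A control probe sets were lower in PTX as well, with a median difference of -0.33. The part of the array's brightness in the differences below was not tested, and 4 other scalings of the arrays are therefore given beside each list whose median they turn in sign.

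Cytokines, neutrophil-attracting chemokines and acute phase genes were mostly lower in PTX, and genes at least 2-fold higher in PTX included some receptors, the C1q chains, apolipoproteins and a minority of interferon-stimulated genes. Of the 12299 measured genes 1681 were at least 2-fold higher in PTX (13.7%) and 767 at least 2-fold lower (6.24%), and 9851 lay within 2-fold. An 8-fold or larger gap separated the stimuli for 58 higher and 33 lower genes. The median over all measured genes was 0.09. Of the higher genes 908 had an LPS reading under the measured level, and of the lower genes 253 had a PTX reading under it. Where a gene had further measured probe sets, another one was also at least 2-fold higher for 301 of 630 higher genes (47.8%) and at least 2-fold lower for 116 of 254 lower genes (45.7%). The balance between the directions followed the scaling, with 68.7% of the 2-fold genes higher in PTX as deposited, 53.1% after quantile normalization (1221 higher, 1079 lower) and 40.5% after median centring (1070 higher, 1575 lower). With the mean log2 value of the hybridization controls set equal between arrays the share was 83.3%. With the median log2 value of 13 reference genes set equal it was 90.6%, although the median difference of these genes was then 0.12. Below, controls or reference genes set equal means this mean or this median.

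**Figure D1:**
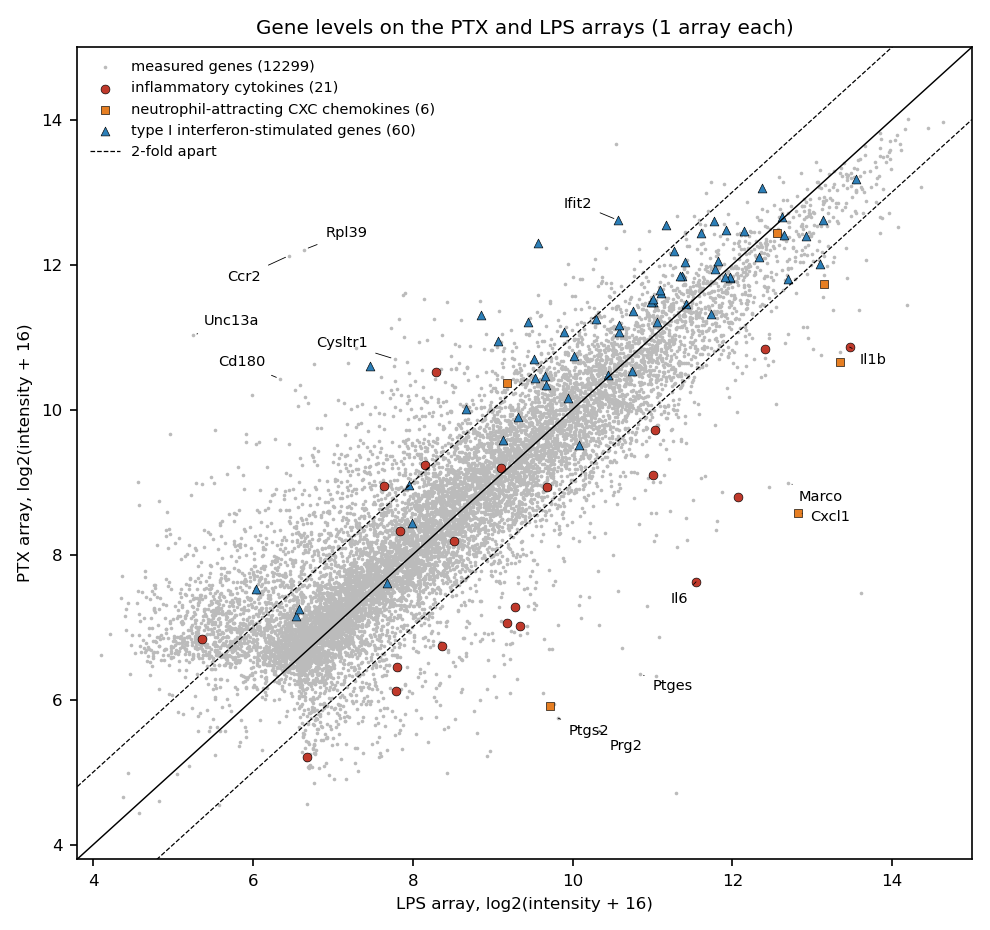
Each point is 1 of 12299 measured genes, with log2(intensity + 16) on the LPS array on the x axis and on the PTX array on the y axis; the solid line marks equal values and the dashed lines a 2-fold difference. Most of the 21 inflammatory cytokines (circles) and 6 neutrophil-attracting chemokines (squares) lie below the lower dashed line, and 12 of the 60 interferon-stimulated genes (triangles) lie above the upper one.

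Inflammatory cytokines were mostly lower in PTX. At least 2-fold lower were 13 of the 21 measured members, while 4 were higher and 4 lay within 2-fold, with a median difference of -1.46 against 0.09 over all genes. Il6, a cytokine of fever and the acute phase response, read 568 in PBS, 2974 in LPS and 181 in PTX, a difference of -3.92. Il1a, an alarm cytokine of the interleukin 1 family, read 1155 in PBS, 4288 in LPS and 427 in PTX (difference -3.28). Il1b, which is cleaved by the inflammasome before release, read 1770.3 in PBS, 11315 in LPS and 1844 in PTX (difference -2.61). The LPS reading was the highest of the 3 for each of these cytokines, and for Il6 and Il1a the PTX reading was the lowest. Tnf read 296 in PBS, 631 in LPS and 113 in PTX (difference -2.33) and Il12a, the p35 chain of interleukin 12, read 105 in PBS, 562 in LPS and 117 in PTX (difference -2.12). Inhba, the activin A subunit, read 1612 in PBS, 2047 in LPS and 532 in PTX (difference -1.91), and Il1rn, the natural antagonist of the interleukin 1 receptor, was lower in all 3 of its probe sets (5413 in LPS against 1806 in PTX, difference -1.58). The anti-inflammatory cytokine gene Il10 read 49.0 in PBS, 205 in LPS and 53.3 in PTX (difference -1.67), so its PTX and PBS readings were both under the measured level.

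Il12b, the p40 chain shared by interleukins 12 and 23, stood apart from Il12a and Il6. It read 85.9 in PBS, 535 in LPS and 569.8 in PTX, a difference of 0.09 that ran from -0.25 to 0.51 over the 5 scalings, so the PTX and LPS readings were close while the PBS reading was low. Ebi3, the partner chain in interleukins 27 and 35, was lower in PTX (994 in PBS, 2078 in LPS and 822 in PTX, difference -1.32). The cytokines higher in PTX were Vegfa, an endothelial growth factor (954 in PBS, 297 in LPS and 1447 in PTX, difference 2.23, both probe sets), Il15, which maintains natural killer and memory T cells (204 in PBS, 183 in LPS and 478 in PTX, difference 1.31), Il18 (231 in PBS, 269 in LPS and 588 in PTX, difference 1.09) and Ifnb1. For Ifnb1, the gene of interferon-beta, the LPS reading of 25.2 and the PBS reading of 33.7 were under the measured level and the PTX reading was 98.0 (difference 1.47). The cytokine list kept a negative median under all 5 scalings, from -1.80 to -1.03, with 10 to 14 members lower and 2 to 4 higher.

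Chemokines that attract neutrophils through Cxcr2 were low in PTX. Cxcl1 had the largest difference on the chemokine lists, with readings of 2019 in PBS, 7223 in LPS and 366 in PTX (difference -4.24), and its other probe sets differed by -4.0 and -3.9. Cxcl5 read 47.6 in PBS, 824 in LPS and 44.4 in PTX (difference -3.80). Cxcl2 read 6975 in PBS, 10398 in LPS and 1594 in PTX (difference -2.69) and Cxcl3 read 6340.0 in PBS, 9043 in LPS and 3379.7 in PTX (difference -1.42). For Cxcl1, Cxcl2 and Cxcl3 the PTX reading lay below the PBS reading as well as below the LPS reading. The platelet chemokine genes on the same list behaved otherwise, since Pf4 differed by -0.12 and Ppbp was higher in PTX (2597 in PBS, 561 in LPS and 1301 in PTX, difference 1.19). Cxcr2, the receptor, read close to the measured level on all 3 arrays (96.4 in PBS, 76.9 in LPS and 79.2 in PTX).

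The promoters of Cxcl1, Cxcl2, Cxcl3 and Il6 are shown because these lower genes carry a match to the NF-kB consensus just before their start sites. The sequences are RefSeq promoters of the mouse build GRCm38.p6, 150 bases up to the start site on the strand of the gene, with the match in capitals, and they lie at chr5:90891095-90891244, chr5:90903749-90903898, chr5:90785951-90786100 and chr5:30012964-30013113, all on the plus strand.
Cxcl1: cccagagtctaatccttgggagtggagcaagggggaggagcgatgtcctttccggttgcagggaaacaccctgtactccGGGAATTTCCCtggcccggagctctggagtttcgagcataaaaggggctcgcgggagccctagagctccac
Cxcl2: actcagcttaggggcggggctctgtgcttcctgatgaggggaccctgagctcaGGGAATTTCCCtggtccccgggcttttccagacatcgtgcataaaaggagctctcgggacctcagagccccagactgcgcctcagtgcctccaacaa
Cxcl3: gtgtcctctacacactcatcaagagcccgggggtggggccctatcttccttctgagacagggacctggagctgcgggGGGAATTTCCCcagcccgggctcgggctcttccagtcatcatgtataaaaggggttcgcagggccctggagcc
Il6: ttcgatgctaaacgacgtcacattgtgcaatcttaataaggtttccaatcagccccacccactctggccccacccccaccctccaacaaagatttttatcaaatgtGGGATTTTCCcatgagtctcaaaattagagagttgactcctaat

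The capitals of the 3 chemokine genes are the same letters and hold 2 overlapping matches each, and that of Il6 is 1 match. The consensus was searched on both strands in the 250 bases before each start site, and a gene counted when any of its promoters held a match. It was found in 3 of 5 neutrophil chemokine genes with a promoter of the table, in 7 of 17 cytokine genes, in 3 of 13 mononuclear chemokine genes and in 1066 of 9956 measured genes (10.7%). Among genes at least 2-fold lower in PTX it was found in 72 of 614 (11.7%) and among those at least 2-fold higher in 151 of 1329 (11.4%). It was found in 0 of 15 acute phase genes, a list that was lower in PTX, and in 9 of 48 interferon-stimulated genes. The consensus stood in 7.25% of the 32851 promoters searched. A match describes the letters in this window and not a bound factor.

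Chemokines of mononuclear cells were lower in PTX in 7 of 20 measured members, higher in 1 and within 2-fold in 12, with a median of -0.62 (from -0.96 to -0.20 over the scalings). Ccl17, which attracts Ccr4-bearing T cells, read 3217 in PBS, 5637 in LPS and 470.5 in PTX (difference -3.54), so its PTX reading was also far under the PBS reading. Ccl22, the other Ccr4 ligand, read 1740.3 in PBS, 5414 in LPS and 1658 in PTX (difference -1.70). Ccl2, the main ligand of Ccr2, read 436 in PBS, 2095 in LPS and 366 in PTX (difference -2.47) and Ccl3 read 1687 in PBS, 5942 in LPS and 1059 in PTX (difference -2.47). Both were highest after LPS. Ccl5, which attracts T cells and monocytes, was high after both stimuli (3295 in PBS, 16143 in LPS and 10175 in PTX, difference -0.67). The Cxcr3 ligands did not move together, with Cxcl9 at -0.85, Cxcl10 at -1.24 (1283 in PBS, 1649 in LPS and 688 in PTX) and Cxcl11 at 1.72 (252 in PBS, 60.8 in LPS and 237 in PTX). Both probe sets of Cxcl11 were higher in PTX, but its LPS reading was under the measured level.

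Acute phase and antimicrobial genes shared a direction as deposited but not a size, with differences from -3.35 to -0.04. All 18 measured members lay below 0, 12 of them at least 2-fold lower and the other 6 closer than that, with a median of -1.29 (-1.63 to -0.87 over the scalings, with 7 to 15 lower). Lcn2, a protein that binds bacterial siderophores, read 1217 in PBS, 18575 in LPS and 2779 in PTX (difference -2.73). Slpi, a protease inhibitor, read 1013 in PBS, 10366 in LPS and 1754 in PTX (difference -2.55). Ptx3, a soluble pentraxin, read 1437 in PBS, 3581 in LPS and 337 in PTX (difference -3.35). Ptx3 was lowest in PTX, whereas Lcn2 and Slpi were lowest in PBS. Saa3, a serum amyloid A made by macrophages, read 1028 in PBS, 21022 in LPS and 8577 in PTX (difference -1.29), so it was far above PBS after both stimuli. Hp, haptoglobin, followed the same order (1869 in PBS, 17296 in LPS and 5855 in PTX, difference -1.56). The calgranulin S100a8 differed by -1.21 and its partner S100a9 by -0.82, and the metallothionein Mt2 by -2.35 (3105 in PBS, 8796 in LPS and 1713 in PTX).

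Prostaglandin E synthesis was among the largest differences of the whole comparison. Ptgs2, the inducible cyclooxygenase, read 282 in PBS, 889 in LPS and 37.5 in PTX (difference -4.08, both probe sets at least 2-fold lower). Ptges, the microsomal prostaglandin E synthase that acts after it, read 78.3 in PBS, 1818 in LPS and 65.9 in PTX (difference -4.49), and its other probe sets differed by -2.91 and -2.30. The PTX reading of each was under the measured level, so the size of these differences depends on the pseudocount, with -4.53 for Ptgs2 and -4.76 for Ptges at a pseudocount of 1. The rest of the eicosanoid list was less affected. Of its 15 members 3 were lower, the third being the glutathione transferase gene Mgst2 (difference -1.23), and 11 lay within 2-fold, including Alox5 (difference -0.16) and its activator Alox5ap (difference -0.27). Hpgds, a prostaglandin D synthase, was higher in PTX (52.6 in PBS, 52.9 in LPS and 176 in PTX, difference 1.48). The list median was -0.47.

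Enzymes of nitric oxide, arginine and tryptophan metabolism went both ways, with 4 of 13 lower and 3 higher and a median of -0.52 (-0.86 to -0.09 over the scalings, and -0.32 when both arrays had to reach the measured level). Nos2, the inducible nitric oxide synthase, reached the measured level after LPS alone (39.0 in PBS, 213 in LPS and 36.6 in PTX, difference -2.12). Slc7a2, an arginine transporter, was lower in all 4 probe sets (7543 in LPS against 2233 in PTX, difference -1.75), and Acod1, which makes itaconate, read 3631 in PBS, 11023 in LPS and 3581 in PTX (difference -1.62). For Slc7a2 and Acod1 the PTX reading was at or below the PBS reading. Kynu, a tryptophan-degrading enzyme, was higher in PTX (202 in PBS, 118 in LPS and 594 in PTX, difference 2.18), as was the arginase gene Arg2 (368 in PBS, 656 in LPS and 1558 in PTX, difference 1.23), while Arg1 differed by 0.21.

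**Figure D2:**
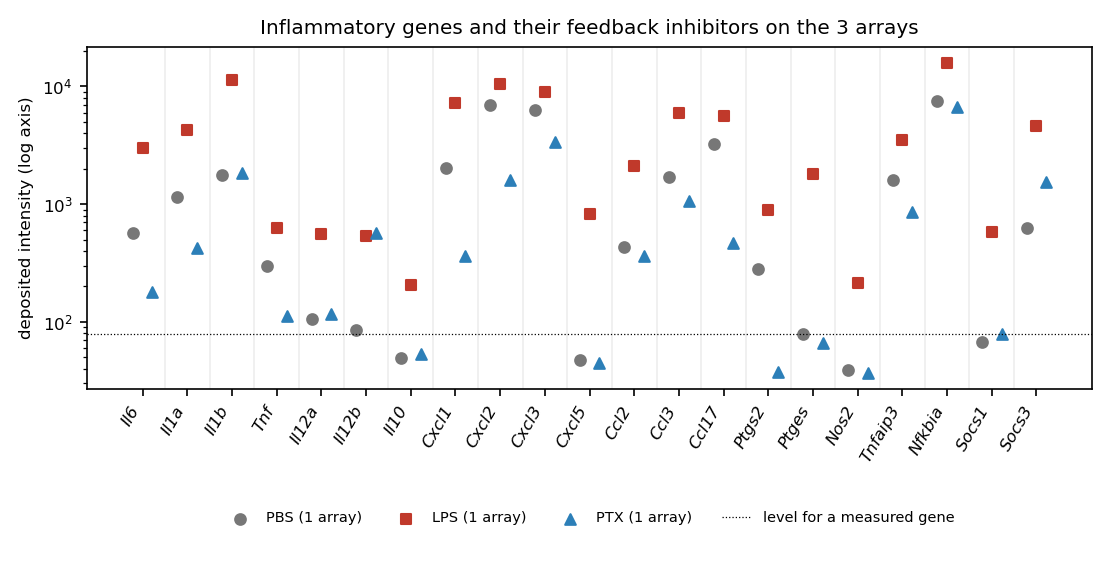
Deposited intensity on a log axis for 21 inflammatory genes and feedback inhibitors, with 1 point per array (PBS, LPS, PTX) and a dotted line at the measured level of 78.9. The LPS square is the highest of the 3 points for most genes, and for Il12b the LPS and PTX points nearly coincide at 535 and 569.8.

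Of 31 genes of NF-kB and its regulators 7 were at least 2-fold lower in PTX, none was higher and 24 lay within 2-fold. Tnfaip3 (A20), a ubiquitin-editing inhibitor of NF-kB, read 1598 in PBS, 3499.8 in LPS and 865 in PTX (difference -2.00, both probe sets). Its binding partner Tnip1 read 1691 in PBS, 3878 in LPS and 1238 in PTX (difference -1.63). Nfkbia, the inhibitor IkB-alpha that holds NF-kB in the cytoplasm, was lower in all 5 probe sets (7569 in PBS, 15949.8 in LPS and 6659 in PTX, difference -1.26). These 3 inhibitors were highest after LPS, while the inhibitor genes Cyld and Bcl3 differed by 0.09 and 0.88. Irak3, a brake on Myd88 signalling, read 723 in PBS, 2429 in LPS and 1014 in PTX (difference -1.25), and the signalling genes Traf1 and Malt1 (differences -1.34 and -1.01) and the regulator gene Nfkbiz (difference -1.18) were lower too. As the median over probe sets, however, Traf1 came within 2-fold and Malt1 changed sign, and 5 of the 31 genes were lower. The subunit genes differed by 0.25 (Rela), 0.15 (Relb), -0.32 (Rel) and -0.49 (Nfkb2). The list median of -0.24 ran from -0.58 to 0.18 over the scalings, with 2 to 11 members lower, so its sign depends on the scaling.

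Of 22 genes of the JAK-STAT pathway 3 were lower and 2 higher, with a median of 0.15 that ran from -0.19 to 0.57 over the scalings. Socs1, which blocks Janus kinases after interferon, read 67.3 in PBS, 581 in LPS and 78.7 in PTX (difference -2.66). Socs3, the inhibitor of interleukin 6 receptor signalling, was lower in all 3 probe sets but above PBS (627 in PBS, 4613 in LPS and 1537 in PTX, difference -1.58). Cish, of the same inhibitor family, was lower as well (difference -1.19), but the family member Socs6 was higher in all 3 probe sets (difference 1.53). The transcription factor gene Stat2 was higher in PTX (157 in PBS, 391 in LPS and 1016 in PTX, difference 1.34). Il6st, the shared signalling chain of the interleukin 6 family, was also higher (778 in PBS, 160.1 in LPS and 672 in PTX, difference 1.97), and so was Il6ra (772 in PBS, 134 in LPS and 1016 in PTX, difference 2.78), although the other probe set of Il6ra differed by 0.74. The ligand gene Il6 and the receptor genes Il6ra and Il6st thus differed in opposite directions.

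Phosphatases that switch off MAP kinases were lower in 5 of 22 list members, all of the dual-specificity family. Dusp1 read 4764 in PBS, 7845 in LPS and 2243 in PTX (difference -1.80) and Dusp6 read 1243 in PBS, 1678 in LPS and 648 in PTX (difference -1.35). Dusp4 (difference -1.93), Dusp14 (difference -1.29) and Dusp16 (difference -1.30, but -0.86 as the median over its probe sets) were the other 3, and Dusp22 (difference 1.29), Map3k1 (difference 2.21) and Mapkapk3 (difference 1.06) were higher. Of 29 AP-1 and immediate early factors 6 were lower and 6 higher. Batf, a dendritic and T cell AP-1 factor, read 219 in PBS, 935 in LPS and 225 in PTX (difference -1.98), and Batf3, which class I cross-presenting dendritic cells need, read 365 in PBS, 819 in LPS and 375 in PTX (difference -1.09). Atf3, a repressor of inflammatory genes, was higher in PTX (1633 in PBS, 523 in LPS and 2607 in PTX, difference 2.28), as were Egr2 (difference 1.31) and Klf4 (difference 1.16) in both probe sets. In each of the last 3 genes the LPS reading was the lowest of the arrays. The medians of these lists, -0.25 and -0.32, turned positive under 1 of the 5 scalings, to 0.18 and 0.10 with the reference genes set equal.

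Maturation genes were lower in PTX by smaller amounts. Of 32 costimulation and maturation genes 7 were at least 2-fold lower, 3 higher and 22 within 2-fold, with a median of -0.68 (-1.01 to -0.25 over the scalings, with 4 to 17 lower). Cd40, the receptor for T cell help, was lower in all 3 probe sets (132 in PBS, 564 in LPS and 218 in PTX, difference -1.31). Cd80 was lower in all 3 as well (134 in PBS, 386 in LPS and 142 in PTX, difference -1.35), whereas the related ligand gene Cd86 differed by -0.29 (693 in PBS, 1412 in LPS and 1155 in PTX). For Cd80 the PTX reading was near that of PBS, and for Cd86 it was nearer that of LPS. Ccr7, the lymph node homing receptor, lay within 2-fold (2163 in PBS, 5689 in LPS and 3622 in PTX, difference -0.65), as did Cd83 (647 in PBS, 1904 in LPS and 1507 in PTX, difference -0.33) and Cd274, the inhibitory ligand PD-L1 (2872 in PBS, 5856 in LPS and 4799 in PTX, difference -0.29). The 4-1BB pair was lower, with the ligand Tnfsf9 at -1.80 and the receptor Tnfrsf9 at -1.37. Ly75 (DEC-205), an endocytic receptor of dendritic cells, was higher in PTX, but its LPS reading was under the measured level (427 in PBS, 51.6 in LPS and 734 in PTX, difference 3.47).

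Of 17 ligands and other genes listed for steering T helper cells 8 were lower and 1 was higher, with a median of -0.75. The higher one was the receptor gene Il6ra, whose probe sets differed in size as given above. When both arrays had to reach the measured level, 5 of 14 were lower and the median was -0.24, and with no filter on low values it was -0.19. Some are cytokines given above. Aldh1a2, which makes retinoic acid, read 710.4 in PBS, 2898 in LPS and 416 in PTX (difference -2.75), Jag1, a Notch ligand, read 1206 in PBS, 2251 in LPS and 1041 in PTX (difference -1.10), and Itgb8, which activates TGF-beta, reached the measured level after LPS alone (20.6 in PBS, 224 in LPS and 39.8 in PTX, difference -2.11). In the TNF superfamily 5 of 19 were lower and 2 higher, namely Tnfsf10 (TRAIL, 254 in PBS, 59.2 in LPS and 273 in PTX, difference 1.94) and Tnfsf14 (LIGHT, 2.07), both with LPS readings under the measured level. The median of -0.19 ran from -0.62 to 0.24 over the scalings.

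Antigen presentation genes differed little. None of 17 MHC class I presentation genes was 2-fold apart, and their median of -0.36 turned to 0.07 with the reference genes set equal. The immunoproteasome gene Psmb8 read 1794 in PBS, 5621 in LPS and 2962 in PTX (difference -0.92), the peptide transporter gene Tap1 read 335 in PBS, 883 in LPS and 1463 in PTX (difference 0.72), and the transactivator gene Nlrc5 read 224 in PBS, 695 in LPS and 1069 in PTX (difference 0.61). All 3 were above PBS after both stimuli. Of 17 MHC class II genes 15 lay within 2-fold, with a median of -0.04 whose sign depended on the scaling. H2-Aa differed by -0.27, H2-Ab1 by -0.28 and Cd74, the invariant chain, by -0.62. The exceptions were Lgmn, an endosomal protease (1202 in PBS, 1453 in LPS and 3119.9 in PTX, difference 1.09), and H2-Ob, whose PTX and LPS readings were both under the measured level.

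Most type I interferon-stimulated genes lay within 2-fold, and those that did not were mostly higher in PTX. At least 2-fold higher were 12 of the 60 measured members, while 1 was lower and 47 lay within 2-fold, beside 13.7% and 6.24% of all genes. The median was 0.51 against 0.09 over all genes, it stayed positive under the 5 scalings (0.17 to 0.93), and 46 of the 60 lay above 0 as deposited. Ifit2, which binds viral RNA, read 494 in PBS, 1499 in LPS and 6246 in PTX (difference 2.05). Ifi213, a DNA sensor of the HIN-200 family, read 57.8 in PBS, 448 in LPS and 2501 in PTX (difference 2.44), and its other probe set differed by 2.00. Ifi204 of the same family read 416 in PBS, 518 in LPS and 1949 in PTX (difference 1.88). In these genes the LPS reading was above PBS and the PTX reading was well above both, except that the LPS reading of Ifi204 was close to PBS. Ifit1bl1 read 397 in PBS, 742 in LPS and 4995 in PTX (difference 2.73) and Slfn5 was higher in all 3 probe sets (199.98 in PBS, 677 in LPS and 2344 in PTX, difference 1.77). Stat2 was given above, and Mx1, Cmpk2, Trim30a, Ifi203 and Slfn9 differed by 1.17, 1.17, 1.37, 1.48 and 1.01. Eif2ak2 (PKR), the kinase that stops translation on double-stranded RNA, had the largest difference (679 in PBS, 161 in LPS and 1537 in PTX, difference 3.13), yet its other probe sets differed by 0.23 and 0.92.

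Many of the brightest interferon-stimulated genes lay close to equal. Irf7, the factor that amplifies interferon production, read 317 in PBS, 6370.2 in LPS and 5399 in PTX (difference -0.24). Ifit1 read 590.0 in PBS, 3995 in LPS and 3618 in PTX (difference -0.14), Usp18 read 729 in PBS, 3509 in LPS and 3891 in PTX (difference 0.15), and Rsad2 (viperin) read 1549 in PBS, 5264 in LPS and 8461 in PTX (difference 0.68). Each of them was above PBS after both stimuli. Bst2 (tetherin) was the only member at least 2-fold lower in PTX (783 in PBS, 8735 in LPS and 4103 in PTX, difference -1.09). Over the scalings the number of higher members ran from 9 to 27 and that of lower members from 0 to 2. The PBS array entered these counts through the measured level and the choice of probe set, and with the probe set chosen over PTX and LPS alone the median was 0.53. Both stimuli are read against the same PBS array.

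GTPases that interferon-gamma induces were higher in 3 of 12 members and lower in none, beside 13.7% higher and 6.24% lower over all genes. Their median was 0.45 (0.11 to 0.87 over the scalings, with 1 to 6 members higher). Iigp1 (Irga6), which attacks the vacuoles of parasites, read 46.7 in PBS, 90.8 in LPS and 648 in PTX (difference 2.64, both probe sets). Irgm1, a regulator of that family, read 769 in PBS, 1389.7 in LPS and 3013 in PTX (difference 1.11). Gbp8 was the other (difference 1.01), whereas the guanylate-binding protein genes Gbp2 (difference -0.08), Gbp3 (difference -0.03) and Gbp7 (difference 0.03) lay close to 0.

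The promoters of Ifi213, Ifi203 and Irgm1 are shown because these genes, higher in PTX, carry the core of the interferon-stimulated response element, searched as GAAANNGAA on both strands. They are RefSeq promoters of GRCm38.p6 with the match in capitals, at chr1:173599273-173599422, chr1:173942493-173942642 and chr11:48871421-48871570, all on the minus strand and written along the gene.
Ifi213: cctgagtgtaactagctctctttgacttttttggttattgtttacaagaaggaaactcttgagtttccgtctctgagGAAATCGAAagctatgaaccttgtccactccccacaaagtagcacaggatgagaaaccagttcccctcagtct
Ifi203: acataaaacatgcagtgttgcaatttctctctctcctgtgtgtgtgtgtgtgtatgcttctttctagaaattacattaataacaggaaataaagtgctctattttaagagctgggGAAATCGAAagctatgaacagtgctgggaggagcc
Irgm1: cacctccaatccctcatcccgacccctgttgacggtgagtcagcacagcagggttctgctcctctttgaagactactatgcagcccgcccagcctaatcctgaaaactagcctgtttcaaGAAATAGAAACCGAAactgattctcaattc

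Ifi213 and Ifi203, neighbours in 1 gene family, share the letters of the match, and Irgm1 holds 2 overlapping matches. The core was found in 23 of 48 interferon-stimulated genes with a promoter in the table (47.9%), in 719 of 9956 measured genes (7.22%) and in 7.13% of all promoters. Of the genes at least 2-fold higher in PTX 110 of 1329 held it (8.28%), and of those at least 2-fold lower 51 of 614 (8.31%). Among lists whose median was lower in PTX the core was found in 4 of 13 mononuclear chemokine genes, 5 of 21 costimulation genes, 2 of 17 cytokine genes, 1 of 15 acute phase genes and 0 of 5 neutrophil chemokine genes.

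Toll-like receptors and their partners were higher in PTX in 7 of 29 members, lower in none and within 2-fold in 22, with a median of 0.34 (0.00 to 0.77 over the scalings). Over all measured genes 13.7% were higher and 6.24% lower. Among the 26 members at the measured level on both arrays 4 were higher and none lower, with a median of 0.31. The largest difference was that of Cd180 (RP105), a Toll-like receptor homologue that restrains signalling from Tlr4 in dendritic cells. Cd180 read 354 in PBS, 65.0 in LPS and 1355 in PTX (difference 4.08), so its LPS reading was under the measured level. Ly86 (MD-1), the protein that pairs with it, read 1029 in PBS, 1095 in LPS and 3563 in PTX (difference 1.69). Some endosomal sensors were also higher, with Tlr3 at 1.22 (117 in PBS, 220.0 in LPS and 533 in PTX, both probe sets), Tlr13 at 1.18 (735 in PBS, 696 in LPS and 1598 in PTX) and Tlr8 at 1.21 (110.2 in PBS, 116 in LPS and 289 in PTX). The endosomal sensor genes Tlr7 and Tlr9 were not among the 2-fold higher genes. The LPS receptor itself differed less, with Tlr4 at 0.58 (1482 in PBS, 1055 in LPS and 1581 in PTX), Ly96 at -0.17 and Cd14 at -0.92 (6827 in PBS, 12727 in LPS and 6714 in PTX). The adaptors Myd88 and Ticam1 lay near 0, at 0.16 and 0.25.

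Ccr2, the chemokine receptor that draws monocytes out of the marrow, had the second largest positive difference of the comparison. It read 2909 in PBS, 71.7 in LPS and 4448 in PTX, a difference of 5.67 (a 50.9-fold ratio with the pseudocount added). Its other probe sets differed by 7.74, 5.05 and 2.79, so all 4 were higher in PTX, and the LPS reading of each was under the measured level. Cx3cr1, the fractalkine receptor, read 283 in PBS, 74.4 in LPS and 463 in PTX (difference 2.41). Ccr6 (difference 1.71) and Ackr3 (difference 1.84) were the other higher members of the list of 10 chemokine receptors, both with LPS readings under the measured level. Ccr9, counted with the plasmacytoid dendritic cell markers and not on this list, differed by 1.78. None of the 10 was lower, and the median was 0.59 (0.25 to 1.02 over the scalings). All 4 higher receptors of the list had LPS readings under the measured level. Among the 5 members at that level on both arrays none was 2-fold apart and the median was 0.05. Ccr1 (difference 0.20) and Cxcr4 (difference 0.05) lay near 0. Ccr2 and its ligand gene Ccl2 differed in opposite directions.

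Receptors for peptides, lipids and metabolites were higher in 6 of 19 members and lower in 2, with a median of 0.53 (0.17 to 0.94 over the scalings). Cysltr1, a receptor for cysteinyl leukotrienes, read 980.0 in PBS, 203 in LPS and 1642 in PTX (difference 2.92, both probe sets). C3ar1, the receptor for the complement fragment C3a, was higher in all 3 probe sets (1621 in PBS, 968 in LPS and 4113 in PTX, difference 2.07). Cmklr1, the chemerin receptor, read 393 in PBS, 286 in LPS and 707 in PTX (difference 1.26), and S1pr1, a receptor for sphingosine phosphate, read 152 in PBS, 104 in LPS and 274 in PTX (difference 1.27). For Cysltr1 and C3ar1 the PTX reading was above both others and the LPS reading was the lowest. Ptger2, a receptor for prostaglandin E2, sat at the 2-fold line (792 in PBS, 462 in LPS and 943 in PTX, difference 1.00), and P2rx7, an ATP-gated channel, was at 1.19. Gpr84, a receptor for medium-chain fatty acids, was lower (699 in PBS, 2527 in LPS and 259.9 in PTX, difference -3.20), and so was the nicotinic acid receptor gene Hcar2 (720.3 in PBS, 554 in LPS and 203 in PTX, difference -1.38). Among 31 cytokine receptors 7 were higher and 1 lower, with a median of 0.21 that ran from -0.13 to 0.63 over the scalings. Csf3r, the G-CSF receptor, read 303 in PBS, 204 in LPS and 1329 in PTX (difference 2.61), Ifngr1 read 2242 in PBS, 1265 in LPS and 3329.5 in PTX (difference 1.39), and Il2ra was the lower one (65.3 in PBS, 331 in LPS and 86.8 in PTX, difference -1.76).

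Lectins and scavenger receptors split by member. Of 15 C-type lectins 7 were higher and 2 lower, and of 15 scavenger receptors 7 were higher and 2 lower. Mgl2, a galactose-binding lectin, read 4517 in PBS, 236 in LPS and 1011 in PTX (difference 2.02), and Clec10a, its close relative, read 623 in PBS, 75.6 in LPS and 317 in PTX (difference 1.86). Mrc1, the mannose receptor, read 441 in PBS, 94.0 in LPS and 472 in PTX (difference 2.15). All 3 were lowest after LPS, and for Mgl2 and Clec10a the PTX reading was also below PBS. Clec7a (Dectin-1), the receptor for fungal glucan, read 6590.3 in PBS, 3388 in LPS and 8990.5 in PTX (difference 1.40). The lower lectins were Clec4e (Mincle), a receptor for mycobacterial glycolipid (5632 in PBS, 12320.2 in LPS and 2630.5 in PTX, difference -2.22, both probe sets), and Clec5a (difference -2.01). Marco, a scavenger receptor for bacteria, had the largest difference of these lists (273 in PBS, 6632 in LPS and 494 in PTX, difference -3.71, both probe sets), and Olr1 was lower too (difference -1.36). The phagocytic receptor genes Mertk (524 in PBS, 609 in LPS and 1841 in PTX, difference 1.57) and Axl (1056 in PBS, 768 in LPS and 1954 in PTX, difference 1.33) and the endocytic receptor gene Lrp1 (1278 in PBS, 596 in LPS and 1538 in PTX, difference 1.34) were higher. The lectin median of 0.53 ran from 0.19 to 1.06 over the scalings, but among the 12 lectins at the measured level on both arrays 4 were higher and the median was 0.01. The scavenger median of 0.40 was -0.02 under median centring and 1.12 with the probe set chosen over PTX and LPS alone.

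**Figure D3:**
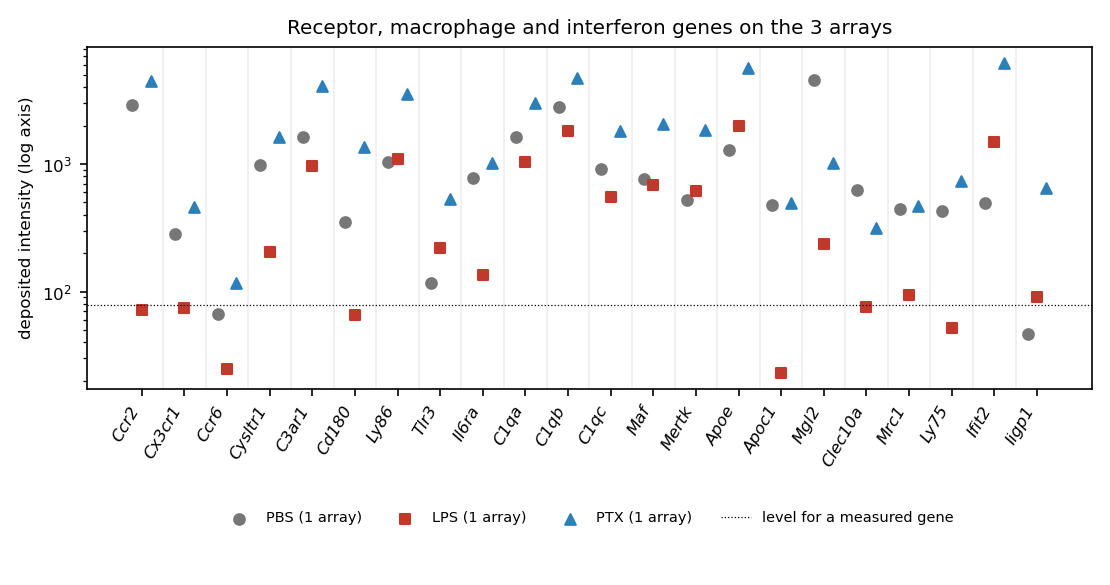
Deposited intensity on a log axis for 22 receptor, macrophage-type, lipid and interferon genes, with 1 point per array (PBS, LPS, PTX) and a dotted line at the measured level of 78.9. The LPS square is the lowest of the 3 points for most of the receptor genes, and for Ifit2 and Iigp1 the PTX triangle is the highest, at 6246 and 648.

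Macrophage-type genes were at least 2-fold higher in PTX in 5 of 12 measured members and lower in none, although 5 of the 12 lay below 0, with a median of 0.47 (0.13 to 0.89 over the scalings). The 3 chains of C1q, the first component of complement, were higher together, with C1qa at 1.54 (1626 in PBS, 1032 in LPS and 3025 in PTX), C1qb at 1.38 in all 3 probe sets (2814 in PBS, 1812 in LPS and 4727 in PTX) and C1qc at 1.71 (913 in PBS, 548 in LPS and 1831 in PTX). Maf, a transcription factor of macrophages, was higher in 4 of 5 probe sets (762 in PBS, 686 in LPS and 2064 in PTX, difference 1.57). Mertk was given above. The general markers Csf1r (difference -0.13), Cd68 (difference -0.34) and Lyz2 (difference -0.19) lay near 0, and Adgre1 (F4/80) read 2898 in PBS, 7695 in LPS and 4834 in PTX (difference -0.67). Fewer cells of a type and less RNA per cell cannot be told apart in such bulk samples. Beyond C1q, complement and clotting factors went both ways, with 5 of 16 higher and 5 lower and a median of -0.18 (-0.52 to 0.27 over the scalings), among them Cfb, complement factor B (177 in PBS, 8983 in LPS and 2981 in PTX, difference -1.59), F7 (difference -2.05) and F13a1 (difference -2.14) lower and F5 higher (difference 3.40).

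Genes of lipoprotein and sterol handling were higher in PTX in 8 of 24 members and lower in 2. Apoe, the main apolipoprotein of macrophages, read 1294 in PBS, 1972 in LPS and 5647 in PTX (difference 1.51). Its neighbours in the genome, Apoc2 (1165 in PBS, 1828 in LPS and 4209 in PTX, difference 1.20) and Apoc1 (474 in PBS, 22.9 in LPS and 492 in PTX, difference 3.71), were higher as well, the last with an LPS reading under the measured level. Pltp, which moves phospholipid between lipoproteins, read 1097 in PBS, 1224 in LPS and 4282 in PTX (difference 1.79). For Apoe, Apoc2 and Pltp both stimuli were above PBS. The fatty acid translocase Cd36 was higher in all 3 probe sets (4052 in PBS, 1733 in LPS and 3917 in PTX, difference 1.17, but 0.83 under median centring). Lower were Dgat2, which makes triglyceride (215 in PBS, 2366 in LPS and 371 in PTX, difference -2.62), and Ch25h, which makes 25-hydroxycholesterol (167 in PBS, 460.1 in LPS and 104 in PTX, difference -1.98). Of 29 genes of cholesterol and fatty acid synthesis 4 were lower and none higher, namely the elongase Elovl6 (difference -2.91), the desaturase Scd2 (1187 in PBS, 2171 in LPS and 494 in PTX, difference -2.10), Fdps (difference -1.48) and Sqle (difference -1.19). The synthesis median of -0.42 was at 0.002 with the reference genes set equal, and the lipid handling median of 0.26 was -0.08 with median centring and 0.10 when both arrays had to reach the measured level.

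Respiratory chain and glycolysis genes were lower by small amounts, while those of the citric acid cycle and fatty acid oxidation had no settled direction. Of 32 respiratory chain and ATP synthase genes 3 were at least 2-fold lower, none higher and 29 within 2-fold, but 29 of the 32 lay below 0, with a median of -0.58 (-0.92 to -0.15 over the scalings). Ndufa4 read 797 in PBS, 1924 in LPS and 641 in PTX (difference -1.56), Sdhc was lower in both probe sets (difference -1.58) and Cyc1 was at -1.01. Of 26 glycolysis and hypoxia genes 5 were lower and none higher, with a median of -0.46 (-0.80 to -0.04). Pfkfb3, which raises glycolytic flux, read 310.5 in PBS, 1934 in LPS and 846 in PTX (difference -1.18), and Pkm, pyruvate kinase, read 3157 in PBS, 5956 in LPS and 2717 in PTX (difference -1.13). Pfkl was at -1.17, although 1 of its 3 probe sets differed by 0.50. Of 29 genes of the citric acid cycle and fatty acid oxidation 2 were lower and 1 was higher, with a median of -0.12 that ran from -0.46 to 0.31. Cpt1a, which admits fatty acids to mitochondria, was the higher one (1871 in PBS, 796 in LPS and 2257 in PTX, difference 1.49), and Idh3a and Dlat were the lower ones (differences -1.36 and -1.12). Of 27 genes of the oxidative stress response 3 were lower, namely Hmox1, haem oxygenase (2427 in PBS, 3977 in LPS and 1142 in PTX, difference -1.79), Sod2, the mitochondrial superoxide dismutase (all 4 probe sets, -1.41), and Nqo1 (difference -1.25). Their median of -0.29 changed sign with the scaling. The housekeeping lists give the scale of such shifts, with a median of -0.31 over 13 reference genes (-0.65 to 0.12 over the scalings) and -0.29 over 34 cytosolic ribosomal protein genes (-0.63 to 0.14). Of the latter Rpl39 was at 5.56 on its only probe set (4933 in PBS, 83.9 in LPS and 4709 in PTX) and Rpl37 at 1.28, and the other 32 lay within 2-fold.

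Cell division genes mostly lay within 2-fold, as did 80.1% of all measured genes. Of 34 mitosis genes 4 were higher, 1 lower and 29 within 2-fold, with a median of 0.32 that ran from -0.02 to 0.74 over the scalings. Only 25 of the 34 reached the measured level on the PTX or the LPS array, and 16 did so on both. Of those 16 genes 2 were higher and none lower, with a median of 0.25. Cenpe, a kinetochore motor (477 in PBS, 7.72 in LPS and 103 in PTX, difference 2.33), Cdc20 (828 in PBS, 81.1 in LPS and 287 in PTX, difference 1.64) and Ccnb2 (692 in PBS, 51.8 in LPS and 154 in PTX, difference 1.33) were higher in PTX but below PBS after both stimuli. The probe sets of Cenpe did not agree in size. At a pseudocount of 1 another probe set stood for the gene, with a difference of 0.88, and the median over its probe sets was 1.51. Of 32 replication genes 30 lay within 2-fold, with a median of 0.02 (-0.32 to 0.44 over the scalings). In the unfolded protein and heat shock list 5 of 29 were lower and 2 higher, with a median of -0.23 (-0.57 to 0.19 over the scalings) and the inducible chaperone gene Hspa1a low in PTX (399 in PBS, 432 in LPS and 30.6 in PTX, difference -3.26).

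**Figure D4:**
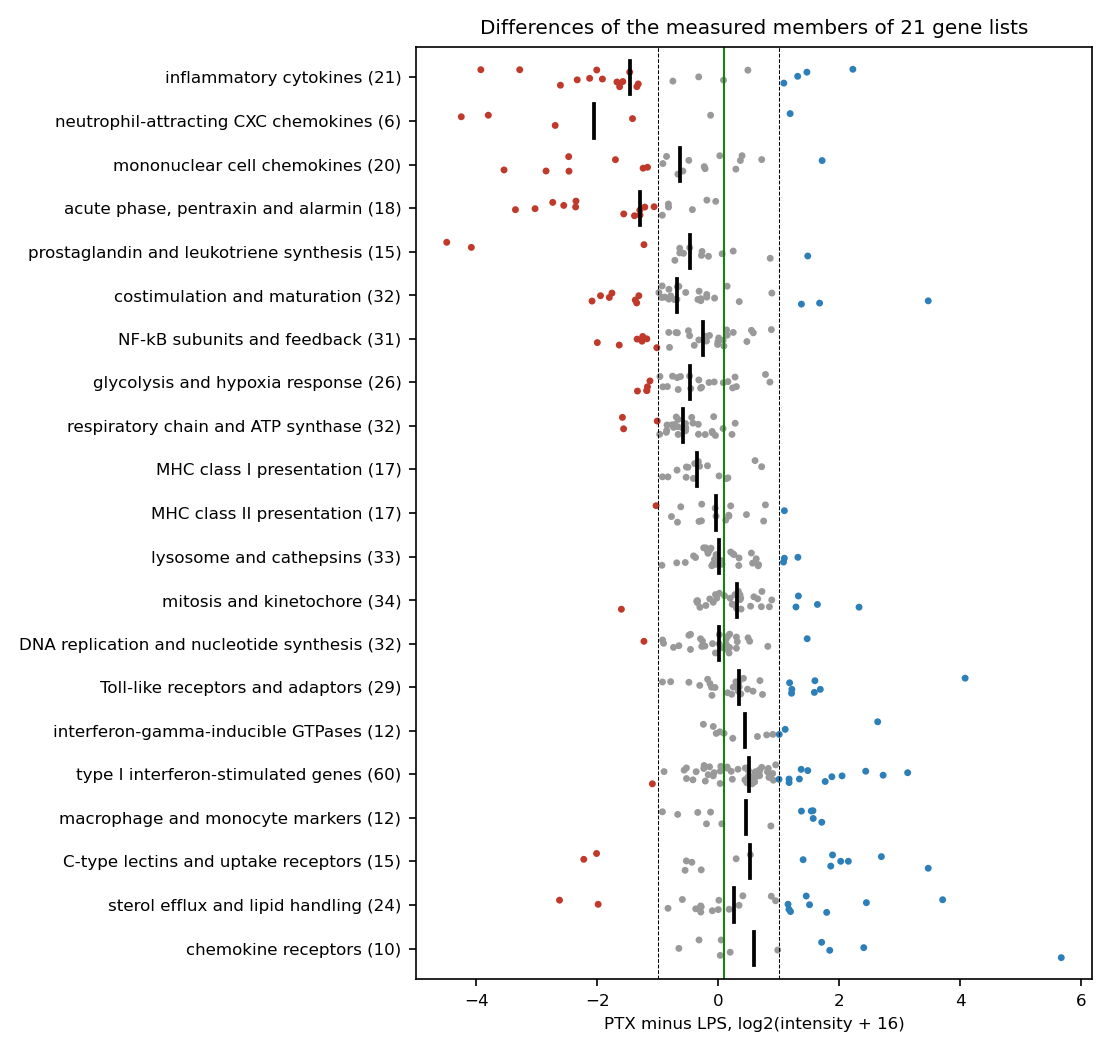
Each point is the PTX minus LPS difference of 1 measured gene on the log2(intensity + 16) scale for 21 gene lists, with members at least 2-fold higher in blue, at least 2-fold lower in red and the rest in grey. Thick bars are list medians, the green line is the median of all measured genes (0.09) and dashed lines mark 2-fold; the neutrophil-attracting chemokine (-2.05), cytokine (-1.46) and acute phase (-1.29) medians lie farthest to the left.

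The labelled cell type was checked against its markers. Of 12 dendritic cell markers 11 were measured and all 11 were at the measured level on both arrays, among them Itgax (CD11c, 2383 in PBS, 1691 in LPS and 1294 in PTX, difference -0.38), Zbtb46 (236 in PBS, 189.6 in LPS and 173 in PTX, difference -0.12) and Flt3 (62.1 in PBS, 181 in LPS and 253 in PTX, difference 0.45). Summed, they came to 44653 in LPS and 31799 in PTX, with a median difference of -0.28 (-0.62 to 0.15 over the scalings). Macrophage markers were bright too, summing to 66787 and 62895. T cell markers had 8 of 12 genes with a probe set measured (sums 4373 and 6026), B cell markers 5 of 12 (689 and 860, median 0.68) and NK cell markers 2 of 9 (244 and 265). Stromal and endothelial markers had 6 of 14 measured (sums 1126 and 2444), with 2 higher, 1 lower and a median of 0.49 that ran from -0.32 to 0.72. Their sum followed Kdr, an endothelial growth factor receptor gene (1003 in PBS, 339.5 in LPS and 1692 in PTX, difference 2.26). Neutrophil markers, 10 of 13 measured, summed to 18808 and 14556, and erythroid and megakaryocyte markers, 6 of 11 measured, to 7085 and 7350. The medians of these 2 lists, -0.33 and 0.41, changed sign with the scaling.

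Mast cell, basophil and eosinophil markers were lower in PTX. Of 15 genes with a probe set 9 were measured, 4 were at least 2-fold lower in PTX and none higher, with a median of -0.73 (-1.12 to -0.31 over the scalings). Summed over these genes, intensity came to 4504 in PBS, 4478 in LPS and 1425 in PTX. Prg2, the eosinophil major basic protein, read 117 in PBS, 1274 in LPS and 31.4 in PTX (difference -4.77), Cpa3, a mast cell carboxypeptidase, read 96.3 in PBS, 549.6 in LPS and 74.2 in PTX (difference -2.65), and Hdc, which makes histamine, was lower in both probe sets (111 in PBS, 536 in LPS and 119 in PTX, difference -2.03). These 3 were highest after LPS, while the eosinophil ribonuclease gene Ear3 was highest in PBS (1446 in PBS, 476 in LPS and 103 in PTX, difference -2.04). The mast cell receptor gene Kit differed by -0.26 and Gata2 by -0.73. The part of such cells in the other differences was not tested.

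Genes outside the lists were named by rank. Among genes with at least 2 measured probe sets that were all at least 2-fold higher, the 15 largest differences began with Ccr2 and went on with Gli2, a transcription factor of hedgehog signalling (436 in PBS, 12.2 in LPS and 409 in PTX, difference 3.91), Arhgap15, a Rac GTPase-activating protein (328 in PBS, 80.3 in LPS and 1282 in PTX, difference 3.75), and Sp110, an interferon-inducible nuclear body protein (478 in PBS, 140.2 in LPS and 1831 in PTX, difference 3.56). Arhgap15 and Sp110 were highest after PTX and lowest after LPS, whereas Gli2 was alike after PTX and PBS. Ccdc80 (difference 3.49), F5, Cysltr1, Gprc5c (difference 2.85), Rims4 (difference 2.82), Ptprg (difference 2.76), Selenbp1 (difference 2.75), Kcnh1 (difference 2.71), Pink1 (difference 2.71), Stim1 (difference 2.71) and Ugt3a1 (difference 2.66) followed. Pink1, a kinase that marks damaged mitochondria, read 909 in PBS, 149 in LPS and 1062 in PTX, and Stim1, the calcium sensor of the endoplasmic reticulum, read 635 in PBS, 92.5 in LPS and 692 in PTX. The PTX and PBS readings of Pink1 and Stim1 were close, and 9 of the 15 had an LPS reading under the measured level.

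The 15 lower genes by the same rule began with Plpp1, a lipid phosphate phosphatase, which read 97.0 in PBS, 2088 in LPS and 63.98 in PTX (difference -4.72). Ptges, Cxcl1, Ptgs2 and Marco were given above. Kctd14 was lower in all 4 probe sets (111 in PBS, 2157 in LPS and 99.9 in PTX, difference -4.23) and Itm2a in both (135 in PBS, 1556 in LPS and 88.8 in PTX, difference -3.91). Fst, follistatin, which binds and blocks activin, read 139 in PBS, 778 in LPS and 52.3 in PTX (difference -3.54), in the same direction as the activin subunit gene Inhba. Gja1, the gap junction protein connexin 43, was lower in all 5 probe sets (26.7 in PBS, 277 in LPS and 26.6 in PTX, difference -2.78). Car4, a carbonic anhydrase, differed from the others in its PBS reading, which was the highest of its arrays (4122 in PBS, 2736 in LPS and 278 in PTX, difference -3.23). Fstl1 (difference -3.30), Rgcc (difference -3.07), Col5a1 (difference -2.79), Slco4a1 (difference -2.79) and Dst (difference -2.67) completed the set, and 6 of the 15 had a PTX reading under the measured level.

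The largest differences of all rested mostly on single probe sets. The 10 highest were Unc13a (61.1 in PBS, 22.01 in LPS and 2063 in PTX, difference 5.77), Ccr2, Rpl39, Nppa (difference 4.71), Opcml (difference 4.44), Spata7 (difference 4.21), Dbx1 (difference 4.20), Macroh2a3 (difference 4.10), Cd180 and Gli2, and of these Ccr2 and Gli2 alone had a further measured probe set. Unc13a, Spata7 and Dbx1 reached the measured level after PTX alone. For 9 of the 10 the LPS reading did not reach the measured level. The 10 lowest were H2bc22, a histone gene that read 11.8 in PBS, 2503 in LPS and 10.1 in PTX (difference -6.59), Prg2, Plpp1, Ptges, Cxcl1, Kctd14, Ptgs2, Il6, Itm2a and Lef1 (37.0 in PBS, 855 in LPS and 45.4 in PTX, difference -3.83), and 6 of them had a PTX reading under the measured level. Predicted genes without an established name made up 173 of the higher and 36 of the lower 2-fold genes and are not named.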

How the data were processed

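Each of the 45101 probe sets has a deposited linear intensity for each of 3 arrays. RNA (3 µg, total) was labelled with biotin by a standard Affymetrix protocol, per the labels. How probes were summarized, background-corrected and scaled is not given in the sources used here, and array medians differ. Probe sets were named by the platform annotation: 64 were controls, 34945 had 1 gene symbol (34741 of them in the RefSeq gene table of GRCm38.p6, with no symbol updated), 932 had several and 9160 had none listed there. The last 2 kinds were left out.

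Intensities were used as deposited, as log2(intensity + 16), which understates the differences of dim genes. Each gene was represented by the probe set with the highest mean over the 3 arrays. A gene was counted when PTX and LPS were at least 2-fold apart. With 1 array per group no test, p-value or error within a group was possible, and precision is limited by the number of arrays.

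The members and the 55 gene lists were chosen with earlier results of these data known. Of 1258 list symbols 1109 had a probe set and 1016 were measured, and lists share some members. Named genes are measured list members, the 15 largest differences in each direction among genes with at least 2 measured probe sets that all differed at least 2-fold that way, and the 10 largest of all in each direction. Predicted genes were counted and not named. Scalings tried were median centring, quantile normalization, an equal mean log2 value of the 18 hybridization controls and an equal median log2 value of 13 reference genes. Other alternatives changed the pseudocount (1 and 64), the choice of probe set and the filter on low values. Promoters (250 bases before the start) came from RefSeq, with 27025 genes in the table. The counting was tested on simulated data. Python 3.11.15, numpy 2.4.6, pandas 2.3.3 and matplotlib 3.10.9 were used.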

Additional observations from a re-analysis of the deposited data

How the results depend on the processing

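The count of genes at least 2-fold higher in PTX, 1681 as reported, was 1101 with a pseudocount of 64, 1070 with median centring, 3093 with 13 reference genes set equal, 883 with the filter at the 75th percentile and 773 when both arrays had to reach the measured level. The count of lower genes, 767 as reported, was 1575 with median centring, 461 with the hybridization controls set equal and 321 with the reference genes set equal. The other settings stayed within 1.5 times. All 42 genes named by rank stayed at least 2-fold apart in the same direction in all 519 values that could be computed. That outcome was largely fixed by the choice of genes, so it is no check of them. The filters drop genes and do not change a difference. The genes were ranked for large differences, and many were required to have all probe sets at least 2-fold apart. Of 254 list genes at least 2-fold apart as deposited, 47 came within 2-fold after median centring, 33 after quantile normalization, 27 with the hybridization controls and 50 with the reference genes set equal. None of those with a value changed sign under these scalings. Apart from quantile normalization, however, these scalings shift every gene by the same amount, which was under 2-fold. A change of sign was thus impossible there, and its absence is no check of those genes. With the median over probe sets 25 of the 254 list genes came within 2-fold, among them Eif2ak2 (0.92), Traf1 (-0.17) and Rbpj (0.00), and 2 changed sign, Malt1 (0.50) and Pdia4 (0.02). With probe sets that can match several transcripts left out, Bcl2l11 was at 0.64, Dusp16 at -0.42 and Pfkl at 0.50. Of the list medians under the alternatives 542 moved by under 0.25 and 171 by more. Among lists whose reported median lay at least 0.5 from that of all genes, 1 changed sign, namely cholesterol and fatty acid synthesis, at 0.002 with the reference genes set equal. For 35 of the 55 lists the sign of the median differed between the 5 scalings, so small medians have no settled direction. The median of all genes, 0.09 as deposited, was -0.28 after median centring and 0.54 once the reference genes were set equal. No paired analysis was possible because each group held 1 array. Differences with 1 reading under the measured level, found for 908 higher and 253 lower genes, rest on dim signal.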

Other observations

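Genes of adhesion and motility were not described above. Of 26 integrin and adhesion genes 5 were at least 2-fold higher in PTX, 2 lower and 19 within 2-fold, with a median of -0.04 whose sign depends on the scaling. Itgb5, a chain of the vitronectin receptor, was higher in all 4 probe sets (1044 in PBS, 406 in LPS and 1868 in PTX, difference 2.16), and Itga6, a laminin receptor chain, in both (564 in PBS, 349 in LPS and 1251 in PTX, difference 1.8). For Itga5 the probe set used was higher (difference 1.95) while another differed by -1.73. Of 29 actin and migration genes 2 were higher, namely Dock2 (difference 1.04) and Rhoh (difference 1.00), and the median of -0.28 ran from -0.62 to 0.15 over the scalings. Lower were Pdpn, podoplanin (2252 in PBS, 7898 in LPS and 2008 in PTX, difference -1.97), and Pfn1, profilin (4604 in PBS, 12996 in LPS and 4279 in PTX, difference -1.60). Of 14 matrix proteases and inhibitors 2 were higher and 2 lower, with a median of 0.08 (-0.26 to 0.57). Timp1 was lower (272 in PBS, 1074 in LPS and 355 in PTX, difference -1.55) and Mmp13, a collagenase, higher (3431 in PBS, 761 in LPS and 2518 in PTX, difference 1.71).

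Of 42 G protein and cAMP signalling genes 4 were higher, 1 was lower and 37 lay within 2-fold, with a median of 0.12 whose sign depends on the scaling. Rgs2, which shortens G protein signals, was higher in all 4 probe sets (3852 in PBS, 1349 in LPS and 4780.4 in PTX, difference 1.81), Gnaq in 4 of 6 (difference 1.10), and Pde3b, a cAMP phosphodiesterase, was at 2.25 (852 in PBS, 204 in LPS and 1028 in PTX). Gng12 was the lower one (difference -1.63). Among 25 lineage factors of dendritic cells Tcf4, the factor that plasmacytoid dendritic cells need, was higher in all 5 probe sets (452 in PBS, 126 in LPS and 787 in PTX, difference 2.49). Klf4 and Rbpj were higher too, and Batf3 was lower, but Rbpj came within 2-fold as the median over its probe sets. The lineage median of 0.21 ran from -0.13 to 0.73 over the scalings. Of 8 measured markers of plasmacytoid dendritic cells 2 were higher, 1 lower and 5 within 2-fold, with a median of 0.34 (-0.04 to 0.72). In cell death and survival, Bcl2l11 (BIM), which promotes death of immune cells, was higher in PTX (1127 in PBS, 513 in LPS and 1841 in PTX, difference 1.81), and 22 of 25 members lay within 2-fold, with a median of -0.16 (-0.50 to 0.26).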
